A study of Mus musculus with 16 samples.

Results

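Complement components and receptors were followed as 9 genes in hippocampal RNA from 16 mice. The 9 genes were taken by symbol from a table of 54532 genes, and all 9 passed the filter on low counts. They are the C1q chains C1qa, C1qb and C1qc, the opsonin precursors C4b and C3, the anaphylatoxin receptors C3ar1 and C5ar1, and Itgam and Itgb2, the subunits of complement receptor 3. The 4 groups held 4 mice each, named WT and hTau.P301S for untreated mice and WT + NR and hTau.P301S + NR for treated mice. hTau.P301S mice are of a transgenic line in which the Thy1 promoter, active mainly in neurons, drives human Tau carrying P301S, and WT mice do not carry it. NR (nicotinamide riboside), a precursor of NAD+, was given in drinking water at 6 mM for 3 months from 12 months of age, and the other groups received none. All mice were 15 months old at sampling per the sample labels, while the study's text gives slightly younger mice and, in 1 passage, a shorter treatment. The labels give neither sex nor whether animals were pooled, so p-values measure the spread between these 16 libraries.

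Complement is a cascade of plasma and tissue proteins that tags surfaces for removal. C1q binds a surface and activates the proteases C1r and C1s, which cleave C4 and C2 to build an enzyme that cleaves C3. Fragments of C3 stay on the surface and are bound by complement receptor 3, while the small fragments C3a and C5a act on their own receptors. In brain, C1q chains and the receptors are made largely by microglia, C4b largely by astrocytes and oligodendrocytes, and the pathway is known for its part in the removal of synapses by microglia.

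Libraries of 2 mice stood apart, and most values that rest on either are given with and without it. Mitochondrial genes took 14.4% of counts in hTau.P301S replicate 1, against 4.48% to 7.07% in the other 15 mice, and 19467 genes were detected, against at least 22199. Genes listed under 2000 bases lay 1.14 higher at the median on the log2 scale in that mouse than in the mean of all mice, and genes over 4000 bases lay at -0.61. Levels are given in CPM, counts scaled to a common library total with TMM scaling. In WT + NR replicate 1, Cst7, a gene of activated microglia, was at 32.3 CPM against 0.226 to 0.601 CPM in the other 3 mice of the group, and Gfap, an astrocyte gene, at 2210 against 506 to 618 CPM. In the same mouse App was at 2770 CPM against 1400 to 1710 CPM in the others of its group, and Prnp at 2300 against 772 to 969 CPM. Its Thy1 level, 572 CPM, lay within the 424 to 580 CPM of the others. Whether this mouse is of the line its label gives is in doubt from these values, and every WT + NR mean below carries that doubt. Total counts ranged from 16490261 to 21915362 per mouse. Xist was above 10 CPM in 3 WT and 2 hTau.P301S mice, and in 3 WT + NR and 1 hTau.P301S + NR mice. Thy1 itself, whose promoter drives the transgene, was at 804 to 1640 CPM in hTau.P301S and 462 to 633 CPM in WT mice, and at 667 to 845 CPM in hTau.P301S + NR mice.

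Per kilobase of listed gene length, C1q chains were the most abundant of the 9 genes in WT mice. C1qa was at 57.5 ± 13.3 CPM per kilobase (SD, n = 4), C1qb at 47.5 ± 12.7 and C1qc at 24.8 ± 7.25. C1qa and C1qb overlapped between mice, while the lowest C1qb value (34.8) lay above the highest C1qc value (30.9). That gap rests on the listed lengths, since in CPM C1qb (37.8 to 68.9) and C1qc (31.2 to 59.7) overlapped. C4b followed at 15.2 ± 5.74 CPM per kilobase and overlapped with C1qc. Itgb2 (2.3 ± 0.255), C3 (1.5 ± 1.61) and Itgam (1.39 ± 0.202) came next, with C3 overlapping both neighbours. C3ar1 (0.526 ± 0.183) and C5ar1 (0.271 ± 0.0834) were lowest and overlapped with each other. Counts behind these values ranged from 591 to 14343 per mouse for the C1q chains and from 10 to 46 for C5ar1, so C5ar1 carries the most counting error.

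**Figure D1:**
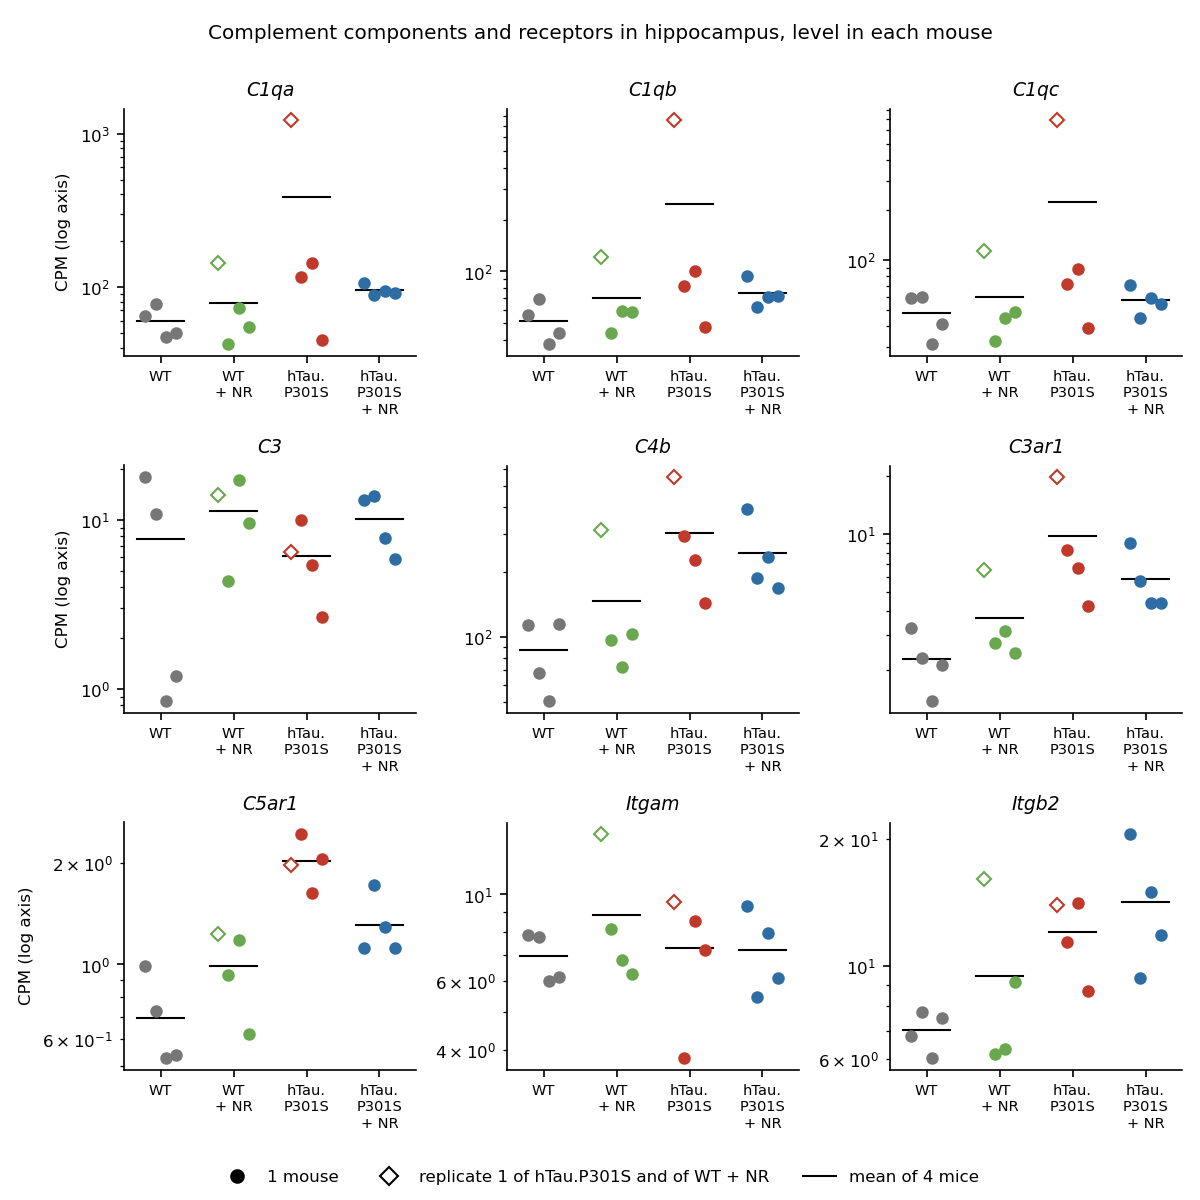
Level of each of the 9 genes in each mouse, in CPM on a log axis that differs between panels, by group. Filled circles are mice, open diamonds are replicate 1 of hTau.P301S and of WT + NR, and bars are means of 4 mice. The hTau.P301S mean of each C1q chain lies above 3 of its 4 mice, while all 4 hTau.P301S mice lie above all 4 WT mice for C4b, C3ar1, C5ar1 and Itgb2.

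C1q chains had higher means in hTau.P301S than in WT mice, but 1 mouse set most of the difference. C1qa (ENSMUSG00000036887, the A chain) was at 64.7, 77.0, 47.1 and 50.2 CPM in WT mice and at 1230, 115, 142 and 44.9 CPM in hTau.P301S mice. Replicate 1 was 12.2 times the mean of the other 3 hTau.P301S mice, and replicate 4 was below every WT mouse, so the groups overlapped. C1qb (ENSMUSG00000036905, the B chain) was at 56.2, 68.9, 37.8 and 43.8 CPM in WT and 757, 81.9, 101 and 47.8 CPM in hTau.P301S mice. C1qc (ENSMUSG00000036896, the C chain) was at 59.1, 59.7, 31.2 and 41.3 CPM in WT and 695, 72.3, 88.3 and 39.1 CPM in hTau.P301S mice. Both chains showed the same order of hTau.P301S mice, with replicate 1 highest and replicate 4 lowest. In edgeR's quasi-likelihood test the log2 fold change was 2.70 for C1qa (SE 0.95), 2.28 for C1qb (SE 0.85) and 2.25 for C1qc (SE 0.87), each with an adjusted p = 0.598. A gene was called where its adjusted p lay under 0.05 and its log2 fold change beyond 0.5 in either direction, and none of the 3 was. Without hTau.P301S replicate 1 the log2 fold change was 0.74 for C1qa, 0.57 for C1qb and 0.47 for C1qc (SE 0.35, 0.28 and 0.31, adjusted p from 0.446 to 0.552, edgeR). C1qa, C1qb and C1qc are listed at 1040, 1088 and 1931 bases, within the short genes that were shifted in that mouse. With each mouse's trend with gene length removed their log2 fold changes were 1.63, 1.32 and 1.58. With a term for whether Xist was above 10 CPM, which it was not in hTau.P301S replicate 1 (0.0855 CPM), they were 1.34, 1.17 and 1.09. None of the 3 chains was called in either fit.

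The C1q chain genes lie next to each other on chromosome 4 of GRCm38, the assembly that mm10 denotes, all on the minus strand. C1qb spans 136880129 to 136886187, C1qc 136889804 to 136893065 and C1qa 136895917 to 136898803, with 3616 and 2851 bases between neighbours. The protein is built from equal numbers of the chains. The ratios below rest on the listed lengths, 1088 bases for C1qb and 1931 for C1qc, whose definition is not stated in the sources used here. Before division by length, WT counts were 1026, 1230, 717 and 809 for C1qb and 1079, 1065, 591 and 763 for C1qc. Ratios away from 1 are thus no measure of an imbalance of chains. Per kilobase, C1qb stood to C1qc at 1.69 to 2.44 in the 15 mice other than hTau.P301S replicate 1 and at 1.93 in that mouse. C1qa stood to C1qb at 0.973 to 1.49 in the 15 mice and at 1.69 in hTau.P301S replicate 1, the highest of all. C1qa stood to C1qc at 2.03 to 3.64 in the 15 mice, the widest of these ratios, and at 3.27 in hTau.P301S replicate 1.

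The 250 bases before the RefSeq start of C1qb and C1qc (GRCm38.p6, minus strand) are shown because these genes are neighbours. Those of C3ar1 and C5ar1 are shown because their levels did not overlap between untreated hTau.P301S and WT mice. Neither was called there by edgeR, and under NR the genotypes overlapped for both. Such a window was found for 6 of the 9 genes. The windows of C1qc (from 136892915) and C5ar1 (from 16259339) reach into the genes as GENCODE lists them, which end at 136893065 and 16259540. The C3ar1 window does so by a few bases, and the C1qb window does not. The marked stretches of C5ar1 lie inside the listed gene, and that of C1qc lies outside it. Parts of these windows may therefore be transcribed. Capitals mark AGGAAGT and GAGGAA, letters at the core of sites for ETS-family factors such as PU.1, on either strand (ACTTCCT and TTCCTC on the other). Where the letters overlap, as in C1qc, they form 1 run of capitals.
C1qb, chr4:136886201-136886450: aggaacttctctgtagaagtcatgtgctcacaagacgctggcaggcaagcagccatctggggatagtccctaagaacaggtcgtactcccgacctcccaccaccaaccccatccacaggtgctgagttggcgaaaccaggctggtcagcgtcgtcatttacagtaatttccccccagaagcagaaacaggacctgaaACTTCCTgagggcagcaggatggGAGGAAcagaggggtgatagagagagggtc
C1qc, chr4:136892915-136893164: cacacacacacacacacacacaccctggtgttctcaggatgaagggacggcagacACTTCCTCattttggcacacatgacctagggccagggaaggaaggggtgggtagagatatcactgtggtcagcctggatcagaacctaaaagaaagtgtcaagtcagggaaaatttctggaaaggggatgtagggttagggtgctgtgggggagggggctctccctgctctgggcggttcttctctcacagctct
C3ar1, chr6:122856158-122856407: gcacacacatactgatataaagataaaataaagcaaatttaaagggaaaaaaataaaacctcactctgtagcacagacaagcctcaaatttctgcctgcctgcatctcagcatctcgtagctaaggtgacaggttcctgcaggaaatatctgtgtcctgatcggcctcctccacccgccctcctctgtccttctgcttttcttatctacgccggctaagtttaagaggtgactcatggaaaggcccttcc
C5ar1, chr7:16259339-16259588: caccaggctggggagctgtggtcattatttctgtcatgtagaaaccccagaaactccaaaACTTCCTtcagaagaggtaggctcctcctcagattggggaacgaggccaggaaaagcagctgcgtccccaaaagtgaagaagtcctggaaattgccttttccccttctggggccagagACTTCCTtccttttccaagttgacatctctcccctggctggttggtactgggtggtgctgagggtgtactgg
AGGAAGT was in the windows of 3 of the 6 genes (C1qb, C1qc and C5ar1) and in 7.69% of 32851 windows of the same length. GAGGAA was in 3 of 6 (C1qb, C1qc and Itgam) and in 23.3% of all windows. TATAAA, letters of the TATA box, was found in C3ar1 alone of the 6, 235 bases before the start, and in 12.4% of all windows. TGCTGAC, letters of sites for MAF-family factors, was in none of the 6 and in 3.81% of all windows. These are matches of letters and not measured sites.

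C4b was above the WT range in all 4 hTau.P301S mice. C4b (ENSMUSG00000073418, chromosome 17, 34728380 to 34743882, minus strand) encodes the C4 protein that C1s cleaves. It was at 113, 67.9, 50.1 and 115 CPM in WT and 554, 294, 228 and 143 CPM in hTau.P301S mice, without overlap. The log2 fold change was 1.83 (SE 0.46, adjusted p = 0.598, edgeR) with all mice and 1.35 (SE 0.33, adjusted p = 0.269) without hTau.P301S replicate 1. C4a, a near-identical paralog 65209 bases away that could share reads with C4b, was at 0.844 to 2.11 CPM in WT and 0.49 to 1.32 CPM in hTau.P301S mice. C4b was at least 54.5 times C4a in every mouse. The summed level of 9 reactive astrocyte markers, C4b not among them, was 409 to 881 CPM in WT and 830 to 1680 CPM in hTau.P301S mice. Further, 6 oligodendrocyte markers summed to 2750 to 7950 CPM in WT and 7320 to 10100 CPM in hTau.P301S mice. All 6 of the latter had a positive log2 fold change (median 0.67), none at an unadjusted p under 0.05. Without hTau.P301S replicate 1 the oligodendrocyte markers summed to 7320 to 9160 CPM in hTau.P301S mice. All 6 were again positive (median 0.47), with Mobp alone at an unadjusted p under 0.05 (edgeR). The part of reactive astrocytes or oligodendrocytes in C4b was not tested. C3 (ENSMUSG00000024164, chromosome 17, 57203970 to 57228136, minus strand), the central component, showed no such separation. It was at 18.0, 10.8, 0.844 and 1.19 CPM in WT and 6.5, 9.96, 5.39 and 2.66 CPM in hTau.P301S mice, with a log2 fold change of -0.32 (SE 0.89, adjusted p = 0.903, edgeR). The WT mice with high C3 were also those with high choroid plexus genes, a tissue next to the hippocampus. The summed level of 6 such genes was 7830 and 2430 CPM in WT replicates 1 and 2 and 19.4 and 140 CPM in replicates 3 and 4. In WT + NR replicate 1 the sum was 63.5 CPM with C3 at 14.0 CPM, and its part in C3 was not tested.

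Both anaphylatoxin receptors were higher in every hTau.P301S mouse than in any WT mouse. C3ar1 (ENSMUSG00000040552, chromosome 6, 122847138 to 122856161, minus strand), the receptor of C3a, was at 3.29, 2.3, 1.37 and 2.11 CPM in WT and 19.8, 8.32, 6.7 and 4.27 CPM in hTau.P301S mice. Its log2 fold change was 2.11 (SE 0.52, adjusted p = 0.596, edgeR) and 1.5 (SE 0.35, adjusted p = 0.251) without hTau.P301S replicate 1. C5ar1 (ENSMUSG00000049130, chromosome 7, 16246743 to 16259540, minus strand), the receptor of C5a, was at 0.987, 0.728, 0.527 and 0.541 CPM in WT and 1.97, 2.44, 1.63 and 2.05 CPM in hTau.P301S mice. hTau.P301S replicate 1 did not stand out for C5ar1, and the log2 fold change was 1.53 (SE 0.35, adjusted p = 0.529, edgeR) with it and 1.54 (SE 0.36, adjusted p = 0.252) without it.

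Of the subunits of complement receptor 3, Itgb2 separated untreated hTau.P301S from WT mice and Itgam did not. Itgb2 (ENSMUSG00000000290, chromosome 10, 77530252 to 77565708, plus strand), the β2 chain that other leukocyte integrins share, was at 6.8, 7.73, 6.01 and 7.52 CPM in WT and 13.9, 11.4, 14.1 and 8.7 CPM in hTau.P301S mice, without overlap. Its log2 fold change was 0.78 (SE 0.23, adjusted p = 0.598, edgeR) and 0.69 (SE 0.21, adjusted p = 0.333) without hTau.P301S replicate 1. Itgam (ENSMUSG00000030786, chromosome 7, 128062640 to 128118491, plus strand), the αM chain also known as CD11b, was at 7.89, 7.79, 6.01 and 6.17 CPM in WT and 9.57, 3.81, 8.55 and 7.2 CPM in hTau.P301S mice. The groups overlapped at both ends, with a log2 fold change of 0.07 (SE 0.31, adjusted p = 0.945, edgeR). Within a mouse, Itgb2 stood to Itgam at 0.861 to 1.22 in WT and 1.21 to 2.99 in hTau.P301S mice, and with NR at 0.758 to 1.46 in WT + NR and 1.7 to 2.21 in hTau.P301S + NR mice. This ratio was chosen after the values were seen and was not tested. Itgax, the αX chain that pairs with Itgb2 as complement receptor 4, was at 0.487 to 1.21 CPM in WT and 2.83 to 16.2 CPM in hTau.P301S mice, a log2 fold change of 3.52 (SE 0.63, adjusted p = 0.323, edgeR), or 2.95 (SE 0.50, adjusted p = 0.124) without hTau.P301S replicate 1. It lies 11055 bases from Itgam, and its groups did not overlap.

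Over the 9 genes, 0 were called in hTau.P301S against WT mice by edgeR, where 1 of 16375 genes tested was (0.00611%) and 1169 had an unadjusted p under 0.05. At an unadjusted p under 0.05, 7 of 9 were higher, against 3.41% of all genes, and the median log2 fold change was 1.83 against 0.02 over all genes. The levels of 4 of 9 did not overlap and were higher in hTau.P301S mice, as in 3.55% of all genes. Each of C4b, C3ar1, C5ar1 and Itgb2 had a two-sided exact permutation p of 0.029, the smallest that 4 mice against 4 can give. Without hTau.P301S replicate 1, C4b, C3ar1, C5ar1 and Itgb2 had an unadjusted p under 0.05 and were higher, 4 of 9 against 5.16% of all genes. DESeq2, the tool the study's methods name, called C4b (adjusted p = 0.026), C3ar1 (0.0178) and C5ar1 (0.0451) on the 8 mice, where it called 0.603% of genes, and gave no adjusted p for C1qb and C1qc. Fitted to all 16 mice it called C1qa, C1qb, C1qc, C4b, C3ar1 and C5ar1 (adjusted p from 0.0021 to 0.0333), with 2.48% of genes called. Without hTau.P301S replicate 1, DESeq2 called C4b, C3ar1 and C5ar1 on 7 mice (1.48% of genes called) and C3ar1 and C5ar1 on 15 mice (2.15%), with C4b at an adjusted p of 0.0804 in the latter. The C1q chains were not called in either of those fits.

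**Figure D2:**
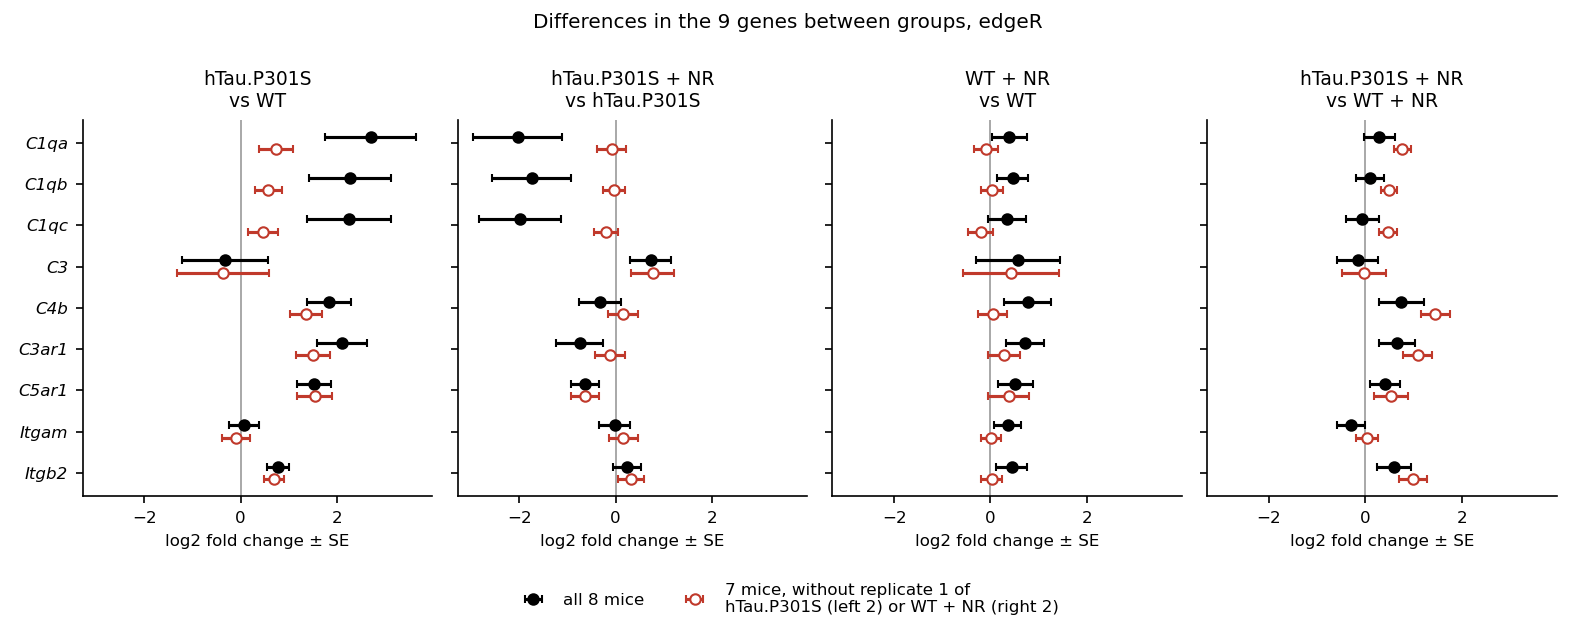
Log2 fold change with its standard error (bars) for each of the 9 genes in the 4 comparisons, from edgeR. Filled points use all 8 mice, and open points leave out replicate 1 of hTau.P301S (left panels) or of WT + NR (right panels). Leaving out 1 mouse moves C1qa from 2.70 to 0.74 in hTau.P301S against WT mice, and from -2.03 to -0.08 in hTau.P301S + NR against hTau.P301S mice, while C5ar1 stays at 1.53 and 1.54 in the former.

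Whether NR altered these genes in hTau.P301S mice was compared next. The comparison shares its hTau.P301S mice with the one above. C1q chains were lower on average with NR, and again hTau.P301S replicate 1 set the difference. C1qa was at 106, 88.5, 94.4 and 91.2 CPM in hTau.P301S + NR mice, inside the 44.9 to 1230 CPM of hTau.P301S mice. C1qb was at 94.4, 62.2, 71.6 and 72.1 CPM, and C1qc at 70.9, 45.2, 59.6 and 54.4 CPM. The 4 hTau.P301S + NR mice were close to each other for C1qa, with an SD of 7.69 CPM against 564 CPM in hTau.P301S mice. The log2 fold change was -2.03 for C1qa (SE 0.92), -1.74 for C1qb (SE 0.82) and -1.98 for C1qc (SE 0.85), each with an adjusted p of 0.367 (edgeR). Without hTau.P301S replicate 1 these were -0.08 (SE 0.30), -0.03 (SE 0.23) and -0.20 (SE 0.25), with adjusted p from 0.713 to 0.964 (edgeR).

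C5ar1 was at 1.12, 1.72, 1.29 and 1.12 CPM in hTau.P301S + NR mice, and 3 of them were below all 4 hTau.P301S mice. Its log2 fold change was -0.63 (SE 0.29, adjusted p = 0.367, edgeR) and -0.63 (SE 0.29, adjusted p = 0.301) without hTau.P301S replicate 1. Its exact permutation p was 0.0571. C3ar1 was at 8.96, 5.74, 4.43 and 4.42 CPM (log2 fold change -0.74, SE 0.49), and its log2 fold change was -0.12 (SE 0.31) without that mouse. C4b was at 394, 187, 236 and 168 CPM (log2 fold change -0.32, SE 0.44), which became 0.16 (SE 0.31) without it. Both groups overlapped widely for these genes. C3 was at 13.1, 13.8, 7.84 and 5.88 CPM (log2 fold change 0.73, SE 0.43), Itgam at 9.32, 5.48, 7.95 and 6.12 CPM (-0.02, SE 0.32) and Itgb2 at 20.6, 9.34, 15.0 and 11.8 CPM (0.23, SE 0.29). No group separated for any of the 9 genes, against 5.54% of all genes without overlap and lower with NR. At an unadjusted p under 0.05, C1qc was lower, 1 of 9 against 7.01% of all genes. By edgeR 0 of the 9 and 1 of 16386 genes (0.0061%) were called, and DESeq2 called none of the 9 on 8 mice (1.26% of genes called), where C1qb and C1qc had no adjusted p, or on 16 mice (1.53%).

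In WT mice, NR went with higher means of all 9 genes, and WT + NR replicate 1 was the highest mouse of its group for 8 of them. C1qa was at 142, 42.0, 72.3 and 54.4 CPM in WT + NR mice, C1qb at 121, 43.8, 58.9 and 58.5 CPM and C1qc at 114, 32.7, 44.8 and 48.5 CPM. C4b was at 315, 96.1, 72.5 and 103 CPM, C3ar1 at 6.52, 2.73, 3.16 and 2.43 CPM and C5ar1 at 1.23, 0.929, 1.18 and 0.621 CPM. In each of these genes the other 3 mice overlapped with the WT range. Itgam was at 14.3, 8.14, 6.81 and 6.26 CPM, Itgb2 at 16.1, 6.17, 6.32 and 9.14 CPM and C3 at 14.0, 4.37, 17.3 and 9.65 CPM. Log2 fold changes ran from 0.34 (C1qc) to 0.77 (C4b), each with an adjusted p of 1 (edgeR). None of the 9 had an unadjusted p under 0.05, against 0.371% of all genes that did and were higher, and edgeR called 0 of 16714 genes (0%), with 132 at an unadjusted p under 0.05 and 3 called by DESeq2. Without WT + NR replicate 1 the log2 fold changes ran from -0.20 (C1qc) to 0.43 (C3), with C4b at 0.05 (SE 0.30) and C1qa at -0.10 (SE 0.25).

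Between genotypes under NR the same mouse weighed on the result from the WT side. In hTau.P301S + NR against WT + NR mice the log2 fold change was 0.75 for C4b (SE 0.47), 0.66 for C3ar1 (SE 0.37), 0.59 for Itgb2 (SE 0.35) and 0.40 for C5ar1 (SE 0.31, edgeR). It was 0.29 for C1qa, 0.09 for C1qb, -0.06 for C1qc, -0.16 for C3 and -0.30 for Itgam. None of the 9 was called, had an unadjusted p under 0.05 or lay without overlap above WT + NR mice. Over all genes edgeR called 9 of 16671 (0.054%), with 2.42% at an unadjusted p under 0.05 and higher and 1.62% higher without overlap. Without WT + NR replicate 1, C4b was 1.45 higher on the log2 scale (SE 0.30, adjusted p = 0.361), C3ar1 1.09 (SE 0.30, adjusted p = 0.794), Itgb2 0.99 (SE 0.29, adjusted p = 0.794) and C1qa 0.77 (SE 0.18, adjusted p = 0.509, edgeR). C1qb (0.49, SE 0.17) and C1qc (0.47, SE 0.18) were also higher in that fit, so 6 of 9 had an unadjusted p under 0.05, against 2.61% of all genes. DESeq2 on the same 7 mice called C4b (adjusted p = 0.000418) and C1qa (0.042), with 0.424% of genes called, and on all 8 mice called none of the 9. With all 4 groups in 1 DESeq2 fit without that mouse both calls were lost (adjusted p = 0.299 for C4b and 1 for C1qa).

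The test of whether the NR effect differed between genotypes rested on both of these mice. Over all 16 mice the difference between the NR effects was -2.38 for C1qa (SE 1.03), -2.17 for C1qb (SE 0.92), -2.28 for C1qc (SE 0.98), -1.44 for C3ar1 (SE 0.65) and -1.13 for C5ar1 (SE 0.45), on the log2 scale in edgeR. These 5 of 9 compare with 4.63% of all genes at an unadjusted p under 0.05 and lower, and each had an adjusted p of 0.558. It was -1.07 for C4b, -0.36 for Itgam, -0.19 for Itgb2 and 0.17 for C3. edgeR called 0 of 17555 genes (0%), with 1390 at an unadjusted p under 0.05 and 17 called by DESeq2. With replicate 1 of hTau.P301S and of WT + NR both left out, the difference was 0.01 for C1qa (SE 0.44), -0.08 for C1qb (SE 0.36), -0.01 for C1qc (SE 0.40), 0.10 for C4b (SE 0.48) and -0.41 for C3ar1 (SE 0.47). C5ar1 stayed at -1.02 (SE 0.47, adjusted p = 0.824, edgeR). It was 0.33 for C3, 0.13 for Itgam and 0.28 for Itgb2.

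In bulk RNA, more cells of a type and more RNA per cell cannot be told apart, so the genes were also set against microglial markers. The summed level of 12 homeostatic microglial markers, P2ry12 and Tmem119 among them, was 367 to 489 CPM in WT and 439 to 1010 CPM in hTau.P301S mice, and 404 to 754 CPM in WT + NR and 485 to 692 CPM in hTau.P301S + NR mice. None of these ranges was separate from the others. In hTau.P301S against WT mice 10 of the 12 were higher and 2 lower, and the mean of their log2 CPM was 0.34 higher (exact permutation p = 0.314). Without hTau.P301S replicate 1 the markers summed to 439 to 639 CPM in the other hTau.P301S mice, with 9 of the 12 higher and 3 lower. Their median log2 fold change was then 0.09, against 0.52 with that mouse (edgeR). Relative to the mean log2 CPM of the markers, C3ar1 was 1.55 higher on the log2 scale in hTau.P301S than in WT mice, C4b 1.39 and C5ar1 1.09, each without overlap (exact permutation p = 0.029, adjusted p = 0.343 over 36 tests). For C5ar1 the gap was narrow, with hTau.P301S replicate 1 at -4.89 and WT replicate 1 at -4.94. C4b is made largely by astrocytes and oligodendrocytes, so microglial markers cannot account for the share of the cells that make it. C1qa was 1.22 higher relative to the markers (exact permutation p = 0.143) and Itgb2 0.41 (p = 0.143, exact permutation). Itgam was -0.34 relative to them (exact permutation p = 0.0857). Without hTau.P301S replicate 1 the difference was 1.36 for C3ar1, 1.27 for C4b, 1.33 for C5ar1 and 0.56 for Itgb2, each without overlap (exact permutation p = 0.029, the smallest 3 mice against 4 can give), and 0.51 for C1qa (exact permutation p = 0.314). Of the 36 tests, 3 had an unadjusted p under 0.05 and 0 passed the adjustment. Of 15 markers of disease-associated microglia, all 15 had a positive log2 fold change in hTau.P301S against WT mice, 10 with an unadjusted p under 0.05, with a median log2 fold change of 1.93. Their summed level was 808 to 1180 CPM in WT and 1150 to 5250 CPM in hTau.P301S mice, the highest being replicate 1. Clec7a and Cst7 had the smallest p of these (log2 fold change 3.97 and 6.09). Much of this rested on that mouse. Without it 14 of the 15 were positive, 7 at an unadjusted p under 0.05, the median was 0.58, Clec7a was 2.92 (SE 0.75) and Cst7 3.27 (SE 0.85), and the summed level was 1150 to 1420 CPM in the other 3 mice. Of 7 border macrophage markers none had an unadjusted p under 0.05, with summed levels of 6.59 to 21.3 CPM in WT and 4.74 to 30 CPM in hTau.P301S mice. The 8 markers of blood leukocytes summed to at most 6.76 CPM in any mouse, and none passed the filter on low counts in a comparison of 2 groups with all mice. In the interaction fit 1 passed, S100a9, at -3.72 on the log2 scale, with an unadjusted p under 0.05 and an adjusted p of 0.558 (edgeR).

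**Figure D3:**
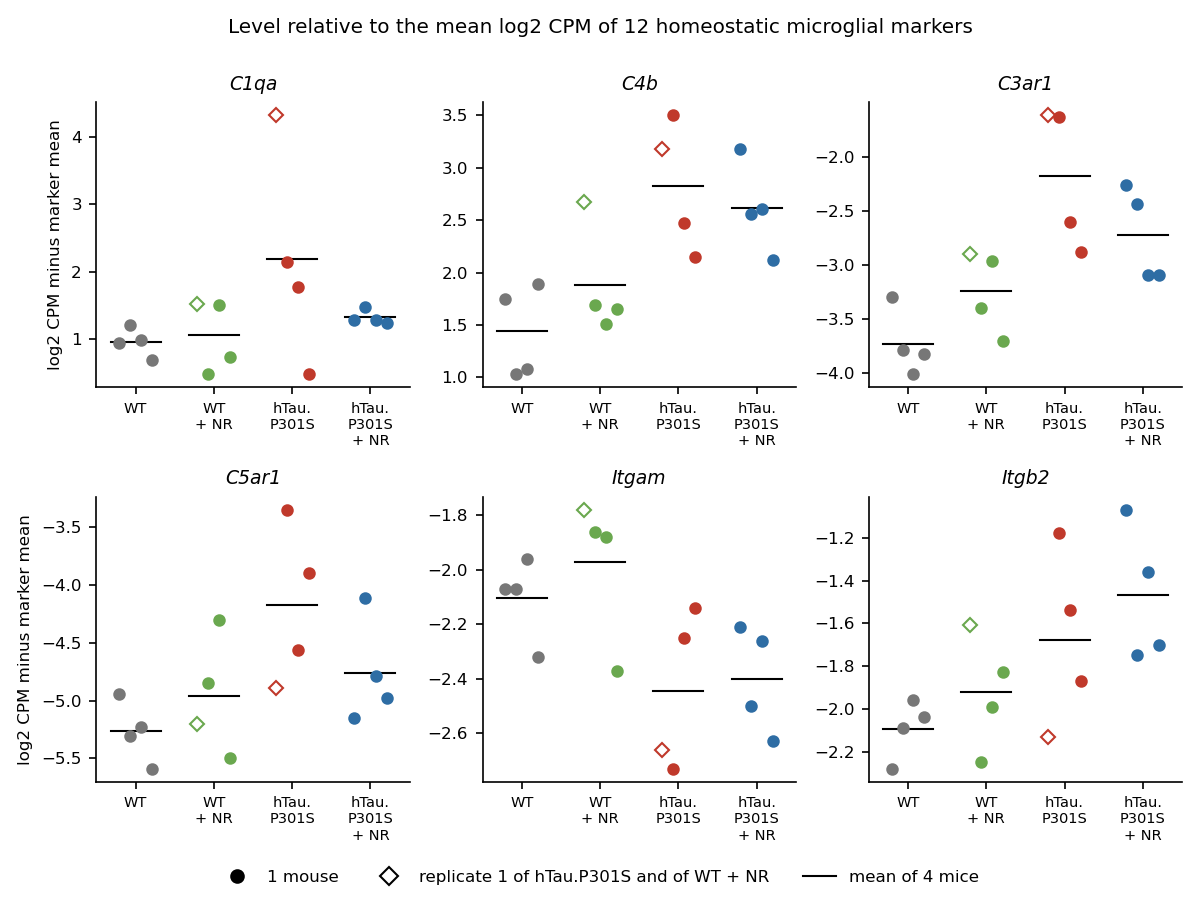
Level of 6 of the genes in each mouse, as log2 CPM minus the mean log2 CPM of 12 homeostatic microglial markers, by group. A fall of the markers would also raise this value. Filled circles are mice, open diamonds are replicate 1 of hTau.P301S and of WT + NR, and bars are means of 4 mice. C4b, C3ar1 and C5ar1 stay higher in all hTau.P301S than in all WT mice, and C1qa and Itgam overlap. For C5ar1 the gap is narrow (-4.89 in hTau.P301S replicate 1 and -4.94 in WT replicate 1). C4b is made largely by cells other than microglia, whose share these markers do not follow.

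The genes whose level followed the C1q chains most closely across the 16 mice included known genes of microglia and macrophages. By Spearman correlation of log2 CPM with the mean of the C1q chains, the closest were Pld4 (rho 0.96, an endosomal exonuclease), Lyz2 (0.96, lysozyme), Tgm1 (0.94, a transglutaminase) and Trem2 (0.94, a microglial lipid receptor). Arl11 (0.93), the protease Ctss (0.92), the lipopolysaccharide co-receptor Cd14 (0.92), the Fc receptor Fcgr2b (0.91), Lair1 (0.91) and Pdcd1 (0.91) followed. Over the 15 mice without hTau.P301S replicate 1 the coefficients were 0.89 to 0.96. Points share the library and its composition, and the coefficients are a description of these mice.

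Of 48 other complement genes, chosen by pathway, 28 passed the filter in hTau.P301S against WT mice, 9 of them higher and 19 lower, with a median log2 fold change of -0.28 against 0.02 over all genes. None was called. Itgax (above), Sez6l2 and Clu were higher at an unadjusted p under 0.05, 3 of 28 against 3.41% of all genes, and C1s1 and Cd55 were lower, 2 of 28 against 3.73%. Sez6l2, which belongs to a family of neuronal complement regulators, was at 313, 310, 364 and 357 CPM in WT and 531, 490, 476 and 485 CPM in hTau.P301S mice (log2 fold change 0.56, SE 0.18, adjusted p = 0.598, edgeR). In hTau.P301S + NR mice it was at 365 to 425 CPM. C1s1, which encodes the protease that cleaves C4, went the other way from the C1q chains and C4b. It was at 2.14, 0.672, 1.05 and 1.51 CPM in WT and 0.427, 0.689, 0.272 and 0.166 CPM in hTau.P301S mice (log2 fold change -1.77, SE 0.56, adjusted p = 0.598, edgeR). Under NR, hTau.P301S + NR against WT + NR, 27 of the 48 were tested, and C1s1 had the smallest p (log2 fold change -2.42, SE 0.52, adjusted p = 0.4), without overlap. C1ra, the partner protease, was lower there (log2 fold change -1.35, SE 0.48) at an unadjusted p under 0.05 and Masp1, a protease of the lectin pathway, higher (0.63, SE 0.17). With C4a and Sez6, 3 of 27 were higher at that level, against 2.42% of all genes. In the fit without WT + NR replicate 1, 4 of 30 were higher at that level, against 2.61% of all genes, and 4 were lower. Sez6 was then 0.24 (SE 0.13) and no longer among them, while Itgax was 2.27 (SE 0.63) and among the higher. In hTau.P301S + NR against hTau.P301S mice C4bp, an inhibitor of C4b at under 1.2 CPM in each of these mice, was lower (-1.61, SE 0.49) at that level and Csmd3 higher (0.73, SE 0.32). Without hTau.P301S replicate 1, C4bp was -1.46 (SE 0.50) and Csmd3 0.50 (SE 0.16), again at that level. In WT + NR against WT mice Itgax was higher (1.96, SE 0.70) at that level, with WT + NR replicate 1 at 7.4 CPM and the others at 1.15 to 1.35 CPM, and Sez6 lower (-0.51, SE 0.20). Without WT + NR replicate 1 Itgax was 0.79 (SE 0.41) and Sez6 -0.46 (SE 0.22), and none of the 30 genes tested had an unadjusted p under 0.05. None of these was called.

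**Figure D4:**
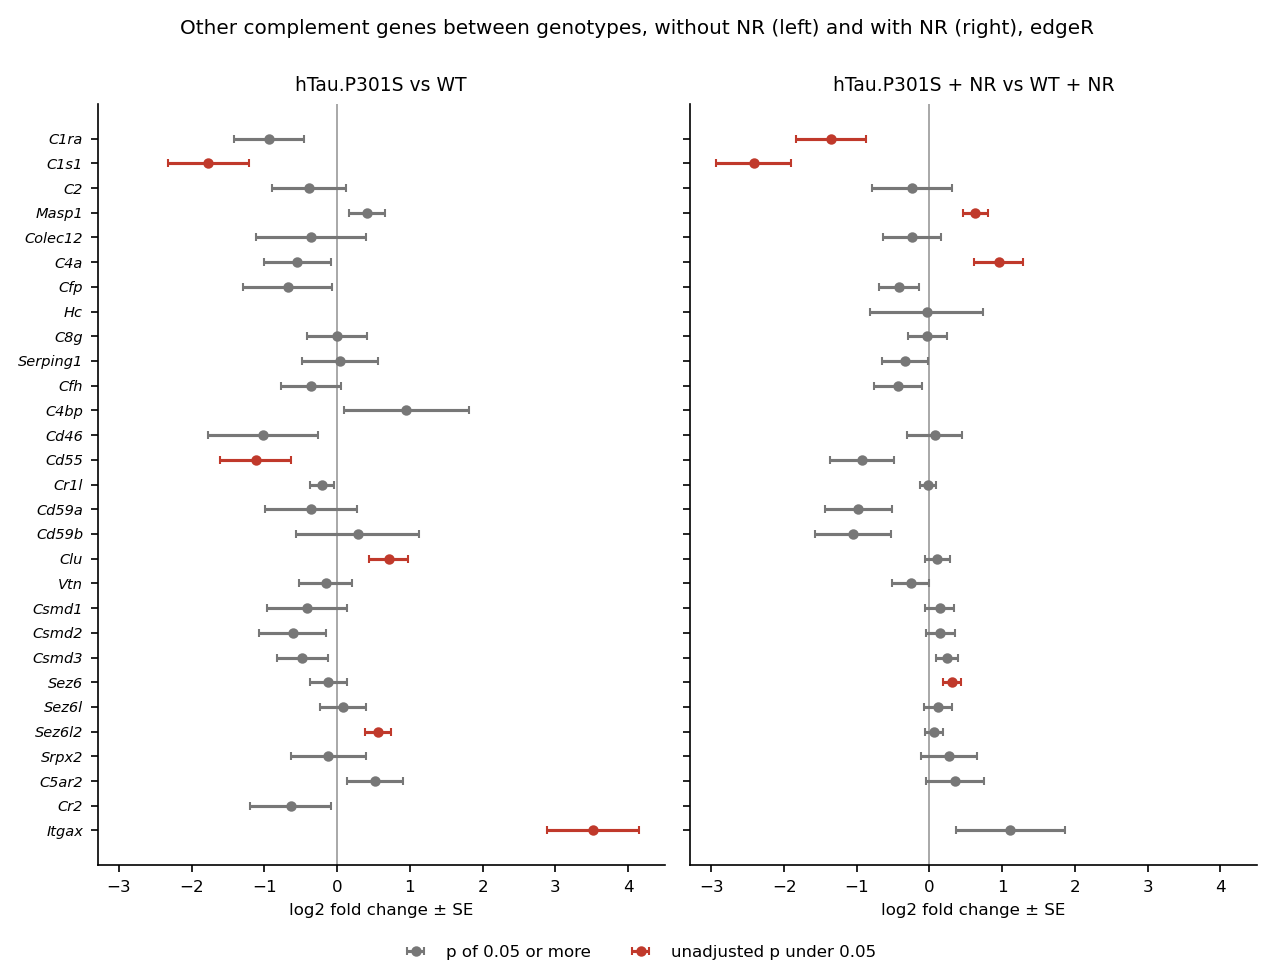
Log2 fold change with its standard error (bars) of the other complement genes that passed the filter, in hTau.P301S against WT mice (left) and hTau.P301S + NR against WT + NR mice (right), from edgeR. Red points have an unadjusted p under 0.05 and grey points do not, and a gene without a point did not pass the filter in that comparison. C1s1 is lower in both panels (-1.77 and -2.42), and Itgax is highest on the left (3.52).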

How the data were processed

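RNA was sequenced from the hippocampus of 16 mice. According to the study's methods and the submitters' processing notes, the authors checked reads with FastQC, trimmed them with Trim Galore, aligned them to mm10 with STAR and counted them per gene with RSEM, and versions are not given in the sources used here. The deposited values are raw counts per gene, whole numbers without normalization. The authors also list a length for each gene, another value whose definition is not stated in the sources used here, used here for levels per kilobase and the length trend. Whether the counting used strand is not stated in the sources used here, and reads of near-identical genes may be split.

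The 8 mice of a comparison entered 1 edgeR 4.0.16 fit in R 4.3.3 (default filter on low counts, TMM scaling, quasi-likelihood test, Benjamini-Hochberg adjustment over all genes tested), and the interaction on all 16. A gene was called where its adjusted p lay under 0.05 and its log2 fold change beyond 0.5 in either direction, the interaction at the adjusted p alone. Standard errors come from the fold change and its test statistic. DESeq2 1.42.0 was an alternative. Log2 CPM used a prior count of 2, and for single values exact permutation tests, two-sided, were run. The scripts were tested on simulated data. Positions are from GENCODE's annotation of GRCm38 and promoters from RefSeq (GRCm38.p6).

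The 9 genes, the other gene lists, the tests and the alternatives were chosen with earlier results of these data known. All 9 genes are named. Of other lists, any called gene and otherwise at most the 3 with the smallest p in a comparison were named, with the 10 genes most like the C1q chains and Thy1. Named after their values were seen were C4a, C1rb, Clu, Cd55, Ttr and the genes that set the libraries apart. Alternatives were DESeq2, DESeq2's size factors in edgeR, no filter, no mitochondrial genes, all 4 groups in 1 fit, the replicate number as a block, and each mouse left out. Added after seeing the data were a length trend removed, a term for Xist, and fits, gene lists included, without replicate 1 of hTau.P301S or WT + NR.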

Additional observations from a re-analysis of the deposited data

Results flagged for a closer look

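In groups of 4 mice, 4 of 36 gene and group combinations had 1 mouse far from the rest, where chance flags about 1 in 20. In hTau.P301S mice, replicate 1 was far above the others for C1qa (the gap to the nearest mouse was 0.918 of the group's range), C1qb (0.924) and C1qc (0.925). In WT + NR mice, replicate 1 was far above the others for C4b (0.872 of the range). The C1q genes are not independent of each other, and the same mouse is the highest in all of them.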

How the results depend on the processing

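Of 1493 values recomputed under an alternative, 1383 stayed the same, 16 passed the limits for a call where they had not, 43 moved, 51 changed sign and 0 fell below the limits. A fold change stayed the same if it kept its direction and side of the limits. None of the 9 genes was called by edgeR in the main fits, so none could fall below the limits. A large shift of size also counted as the same, such as C1qa in hTau.P301S against WT mice. It went from 2.70 to 0.74 without hTau.P301S replicate 1. The count of values that stayed the same is thus no measure of how stable their sizes were. For a number of genes called the rule was a change within a set factor. For a level relative to the microglial markers it was a shift smaller than the larger SD of the groups compared. The cause of these shifts was not tested unless given. For hTau.P301S against WT mice, genes called numbered 1 by edgeR, 116 by DESeq2, 5 without a filter, 36 with all 4 groups in 1 edgeR fit, 492 with all 4 in 1 DESeq2 fit, 9 with the length trend removed and 2 with a term for Xist. Without hTau.P301S replicate 1 DESeq2 called 286, or 439 with all 4 groups in 1 fit. Of the 9 genes 0 were called by edgeR, 3 by DESeq2 and 6 by DESeq2 with all 4 groups, and 3 and 2 without hTau.P301S replicate 1. For hTau.P301S + NR against hTau.P301S mice 1 gene was called by edgeR, 243 by DESeq2, 2 with all 4 groups in edgeR, 245 with all 4 in DESeq2 and 0 with Xist, and 687 and 110 by the same DESeq2 fits without hTau.P301S replicate 1. In WT + NR against WT mice DESeq2 called 3 (also with all 4 groups, and without WT + NR replicate 1) against 0. For hTau.P301S + NR against WT + NR mice edgeR called 9, DESeq2 56, the fit without a filter 15 and DESeq2 with all 4 groups 22. Without WT + NR replicate 1 DESeq2 called 84, 2 of them among the 9 genes, or 25 with all 4 groups. In the interaction DESeq2 called 17 against 0, and 1 was called with both mice left out.

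Leaving out each mouse in turn, genes called ran from 1 to 14 in hTau.P301S against WT, from 0 to 33 in hTau.P301S + NR against hTau.P301S, from 8 to 31 in hTau.P301S + NR against WT + NR mice and from 0 to 1 in the interaction. Log2 fold changes that changed sign ran, in the first, from -0.71 to 0.50 for C3 and from -0.10 to 0.26 for Itgam, and in the second from -0.62 to 0.16 for C4b and from -0.22 to 0.16 for Itgam. In WT + NR against WT mice they ran from -0.10 to 0.60 for C1qa and from -0.20 to 0.54 for C1qc. In hTau.P301S + NR against WT + NR mice they ran from -0.09 to 0.49 for C1qb, from -0.27 to 0.47 for C1qc, from -0.43 to 0.13 for C3 and from -0.45 to 0.04 for Itgam, and in the interaction from -0.68 to 0.55 for C3 and from -0.42 to 0.20 for Itgb2.

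Further sign changes of log2 fold changes were seen. In hTau.P301S against WT mice C3 was 0.30 and Itgam -0.06 with Xist, and Itgam was -0.10 in DESeq2 without hTau.P301S replicate 1. In hTau.P301S + NR against hTau.P301S mice Itgam was 0.01 in DESeq2, 0.03 without a filter and 0.15 in DESeq2 without hTau.P301S replicate 1, where C4b was 0.15 (0.16 with all 4 groups). In WT + NR against WT mice C1qa was -0.09 and C1qc -0.19 in DESeq2 without WT + NR replicate 1. In hTau.P301S + NR against WT + NR mice C1qc was 0.05 with the length trend removed, 0.06 with Xist and 0.46 in DESeq2 without WT + NR replicate 1, where Itgam was 0.04 (0.03 with all 4 groups). With both mice left out the interaction was 0.01 for C1qa, 0.10 for C4b, 0.13 for Itgam and 0.28 for Itgb2.

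Mice with the same number are different animals, and their deviations from the group means correlated at -0.54 to 0.29. The labels do not say what the numbers mean, and these correlations cannot show whether mice of 1 number share a batch. With the replicate number as a block, edgeR called 3 genes in hTau.P301S against WT, 0 in hTau.P301S + NR against hTau.P301S and 4 in hTau.P301S + NR against WT + NR mice, and none of the 9 genes in any comparison. With the block C3 was 0.49 in the first and -0.44 in the interaction, Itgam was 0.03 in the second and C1qc 0.09 in the third. Low counts limit C5ar1 (10 to 46 per mouse) and C3 (16 to 351).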

Other observations

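Genes of the C1 proteases on chromosome 6 of GRCm38, chosen here after their values were seen, are given here as values, and none was called in a genotype comparison. C1ra (124512405 to 124523443), C1s1 (124530345 to 124542359) and C1rb (124570294 to 124581171) are neighbours. C1ra was at 1.95 to 2.69 CPM in WT and 0.342 to 1.8 CPM in hTau.P301S mice, without overlap (adjusted p = 0.598, edgeR). C1rb, a near-identical paralog of C1ra that did not pass the filter in hTau.P301S against WT mice, was listed at 0 in all 4 WT mice and at 0.427, 0.9, 0.272 and 0.554 CPM in hTau.P301S mice. In WT + NR mice it was at 0.0514, 0.273, 0.0494 and 0 CPM, and in hTau.P301S + NR mice at 0.672, 0.522, 0.672 and 0.292 CPM. So C1rb was detected in each hTau.P301S mouse of either treatment and lay above every mouse without the transgene in 7 of 8, hTau.P301S replicate 3 (0.272 CPM) being level with WT + NR replicate 2. C3ar1 lies 1656243 bases from C1ra on the same chromosome.

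Clu, a regulator of the terminal pathway made mainly by astrocytes, was at 1150, 1020, 729 and 884 CPM in WT and 2120, 1570, 1290 and 1190 CPM in hTau.P301S mice, without overlap (log2 fold change 0.71, SE 0.27, adjusted p = 0.598, edgeR). Without hTau.P301S replicate 1 its log2 fold change was 0.51 (SE 0.18, adjusted p = 0.385, edgeR). Cd55, an inhibitor that dissociates C3 convertases, was at 9.37, 5.43, 4.69 and 6.06 CPM in WT and 0.855, 5.03, 2.34 and 3.44 CPM in hTau.P301S mice (log2 fold change -1.12, SE 0.49, adjusted p = 0.598, edgeR). Its log2 fold change was -0.83 (SE 0.34, adjusted p = 0.407, edgeR) without hTau.P301S replicate 1. The choroid plexus gene Ttr ranged from 0.738 to 7380 CPM in WT mice.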
